A study of Mus musculus with 10 samples.

Results

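The acute response of hSA::Fv2E-PERK mouse muscle to the dimerizing compound AP20187 was measured on 4 arrays of the 10 in the series: 2 of transgenic muscle after vehicle and 2 of transgenic muscle after AP20187. The members are the arrays whose labels give these groups. All mice were male C57BL/6J, and the labels give no age. Transgenic mice were injected intraperitoneally with AP20187 at 1 ng per g of body weight or with its solvent, and muscle was collected 12 h later. Both groups carry the transgene, so that the groups differ in the compound injected and not in genotype. No muscle without the transgene received AP20187, so effects of the compound itself cannot be told apart from those that need the transgene. Untreated wild type muscle (2 arrays) gives a reference level and adds to the estimate of the spread in the fit. It received no solvent injection and lay on another slide, so that genotype, injection and slide cannot be told apart in any difference between wild type and transgenic arrays, and no such difference was tested. The labels do not name the muscle, and nothing in them says whether replicates came from separate mice. The p-values therefore measure the spread between the muscle arrays, wild type included, which may be in part technical. Which genes were tested also drew on the wild type arrays.

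PERK is a kinase of the endoplasmic reticulum (ER) that pairs with itself and becomes active when unfolded protein builds up. It phosphorylates the translation factor eIF2alpha, which lowers protein synthesis in general while the mRNA of the transcription factor ATF4 is translated better. ATF4, and CHOP downstream of it, switch on genes for amino acid supply, redox defence and, after long stress, cell death, and this programme is called the integrated stress response (ISR). In Fv2E-PERK the kinase part is joined to a domain that AP20187 brings together, so that the kinase can be paired without unfolded protein. The hSA promoter, from the skeletal actin gene, drives the fusion in skeletal muscle fibres, while blood vessels, connective tissue and immune cells in the same sample should not carry it.

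Each array had 59305 spots for mouse genes, of which 46.6% to 49.1% were well above background on the 4 transgenic arrays and none was saturated. All 4 lay on the same slide and in the same scan. Both vehicle arrays lay in column 1 of the slide and the AP20187 arrays in columns 3 and 4. Treatment and slide column therefore cannot be told apart. Over all genes tested, log2 levels correlated at r = 0.992 between the vehicle arrays and 0.993 between the AP20187 arrays, and at 0.977 to 0.982 across these groups. These correlations are across genes, which are not independent replicates. The standard deviation of the difference between arrays was 0.39 and 0.36 log2 units within the groups and 0.58 to 0.65 between them. All 10 muscle fibre markers were well above background on all 4 arrays, among them Acta1 (skeletal actin), Ckm (muscle creatine kinase) and Myh4 (a fast myosin heavy chain).

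AP20187 changed many genes of the muscle by a small amount and fewer by 2-fold or more. Of 13590 genes tested, 3949 (29.1%) changed at an adjusted p under 0.05 by limma, 1943 higher (14.3%) and 2006 lower (14.8%). At least 2-fold rises numbered 450 (3.31%) and at least 2-fold falls 269 (1.98%), and at least 4-fold changes were 52 and 27. With normexp background correction the 2-fold counts were 233 and 47, and 154 falls were left where signal on all 4 transgenic arrays was required. Of the called falls, 89 were below background after AP20187. The median size of a called rise was 0.71 log2 units and of a called fall -0.53. The AP20187 arrays did not overlap the vehicle arrays in 9290 genes (68.4%). Rises and falls were spread unevenly over expression level. With the genes ranked by level into 4 equal bins, 11.7% were higher and 23.9% lower in the brightest bin, whereas 23.3% were higher and 14.7% lower in the bin below it. The split depends on how the arrays are scaled: the median log2 change of all genes was -0.11 with the 75th percentile scaling used throughout, -0.01 after quantile normalization and 0.11 with scaling on the spike-in controls. Calls were then 2078 higher and 1172 lower after quantile normalization, and 1541 higher and 222 lower with the spike-in controls. Those controls read 1.44 and 1.74 after vehicle and 1.37 and 1.36 after AP20187, so the vehicle arrays differed from each other by more than vehicle replicate 1 differed from AP20187. Modest falls are therefore given here as changes relative to the 75th percentile of each array. Fitted on the 4 transgenic arrays alone, 3369 genes changed, 1820 higher and 1549 lower. Without vehicle replicate 2, which lies alone in the second row of the slide, 1780 genes changed, without AP20187 replicate 1 there were 2375 and without AP20187 replicate 2 there were 2628.

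**Figure D1:**
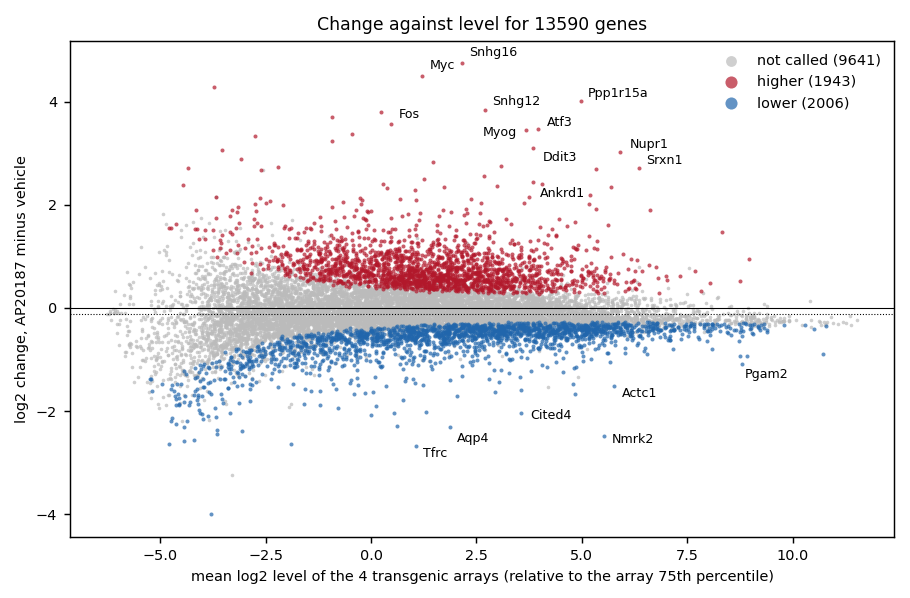
Log2 change (AP20187 minus vehicle, y axis) against the mean log2 level of the 4 transgenic arrays (x axis) for 13590 genes, with 1943 called higher in red, 2006 called lower in blue and the rest in grey. The dotted line is the median of all genes (-0.11), and the rises reach further from it than the falls.

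The largest rises among genes above background on all 4 arrays included Snhg16, Myc and Ppp1r15a, and the largest falls included Tfrc, Nmrk2 and Aqp4. Myc, a growth-promoting transcription factor, read -0.73 and -1.34 after vehicle, near the -1.20 and -1.26 of wild type, and 3.63 and 3.30 after AP20187, a log2 change of 4.50 (SE 0.21; 22.6-fold). Arid5a, an RNA-binding protein that stabilises inflammatory mRNAs, went from 1.96 and 1.43 to 4.73 and 4.17 (6.74-fold). Spsb2, a substrate receptor of a ubiquitin ligase, went from 1.38 and 1.41 to 3.94 and 3.99 (5.92-fold). In each of these genes every AP20187 array stood above every vehicle and wild type array. The genes were picked for their rise, and AP20187 and vehicle arrays did not overlap in 68.4% of all genes. Cxcl10, a chemokine, rose 10.3-fold on average, but its AP20187 arrays read 2.38 and 0.08 against -2.15 and -2.13 after vehicle, so that the size of the rise differed widely between them. Tfrc, the transferrin receptor that brings iron into cells, read 2.47 and 2.34 after vehicle and -0.29 and -0.28 after AP20187 (6.43-fold lower, log2 change -2.68, SE 0.12). Nmrk2, a muscle nicotinamide riboside kinase of NAD synthesis, went from 6.24 and 7.29 to 4.23 and 4.34 (5.58-fold lower), and Aqp4, the water channel of fast fibres, from 2.92 and 3.12 to 0.39 and 1.03 (4.96-fold lower). Both lay below their wild type levels after AP20187. Of the 450 genes at least 2-fold higher, 435 had an AP20187 mean above the wild type mean as well. Of the 269 at least 2-fold lower, 254 had one below it. Both sets were picked for their change from vehicle. The vehicle mean lay within 0.5 log2 units of wild type in 251 and 140 of them, and for those genes the outcome was fixed by the selection.

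**Figure D2:**
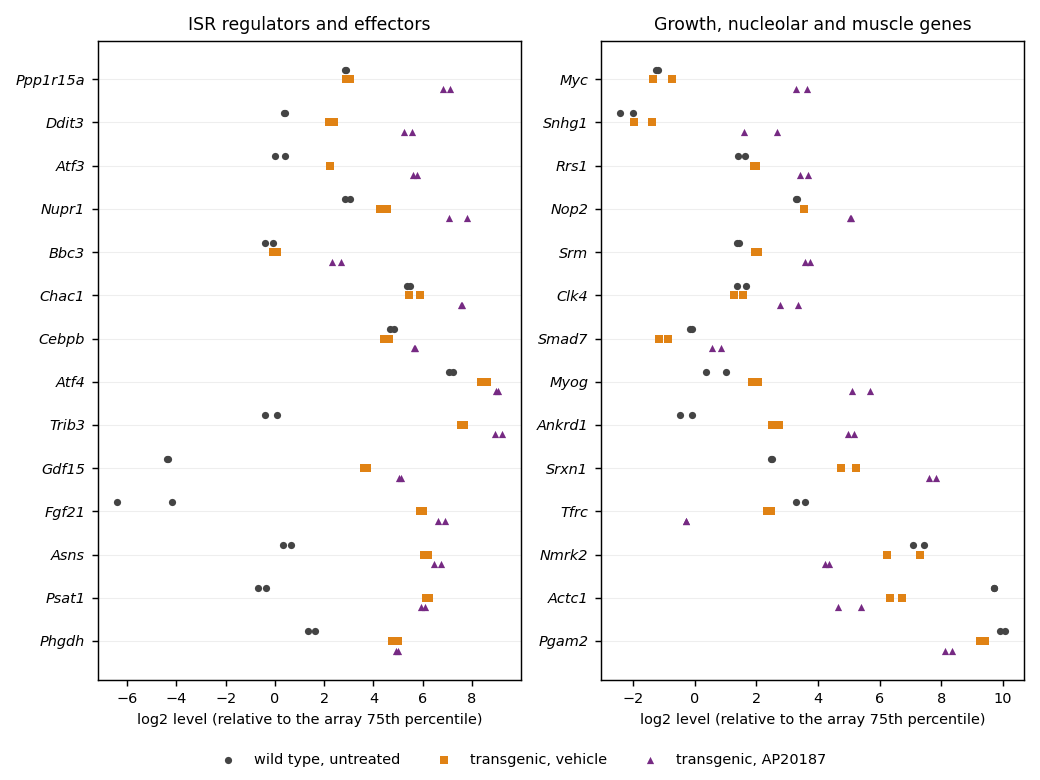
Log2 level relative to the 75th percentile of each array (x axis) of 28 genes (y axis) on the 6 muscle arrays, with circles for untreated wild type, squares for transgenic vehicle and triangles for transgenic AP20187, 1 symbol per array. Ppp1r15a, Bbc3, Chac1 and Myc sit near wild type after vehicle and apart from it after AP20187, whereas Psat1, Phgdh and Asns sit far above wild type after vehicle and move little further.

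Among regulators of the ISR, 10 of 18 tested genes were higher with AP20187 and 0 lower, with a median log2 change of 0.64 against -0.11 for all genes. The count was 10 without each of the arrays in turn. The largest rise was in Ppp1r15a, which encodes GADD34, the factor that directs eIF2alpha dephosphorylation: it read 2.87 and 2.85 in wild type, 3.05 and 2.88 after vehicle and 6.84 and 7.12 after AP20187 (log2 change 4.01, SE 0.12; 16.2-fold). The vehicle arrays of this gene lay close to wild type and far below the AP20187 arrays. Its constitutive counterpart, Ppp1r15b, had a log2 change of 0.24 (SE 0.21, limma adjusted p = 0.388). Atf3, a repressor and activator induced by stress, read 2.23 and 2.22 after vehicle and 5.77 and 5.60 after AP20187, with a wild type mean of 0.20. Ddit3, which encodes CHOP, read 0.39 and 0.37 in wild type, 2.39 and 2.21 after vehicle and 5.24 and 5.56 after AP20187. Atf3 and Ddit3 thus stood above wild type after vehicle and rose with AP20187 by a further 3.46 and 3.10. Nupr1, a small stress-induced chromatin protein, rose from 4.56 and 4.24 to 7.06 and 7.79 (8.13-fold). Nfe2l2, which encodes the redox regulator NRF2, rose 2.66-fold, Cebpb 2.17-fold and Cebpg, a dimer partner of ATF4, 1.68-fold. Trib3, a pseudokinase that restrains ATF4 and CHOP, was far above wild type already: 0.10 and -0.41 in wild type, 7.53 and 7.66 after vehicle and 8.94 and 9.21 after AP20187 (2.79-fold). Atf4 itself read 8.37 and 8.61 after vehicle and 8.96 and 9.07 after AP20187 (log2 change 0.53, limma adjusted p = 0.0131), a call that was lost without AP20187 replicate 2. Atf5, a relative of ATF4 with a similarly controlled mRNA, had 8.02 and 8.09 after vehicle and 8.03 and 8.15 after AP20187 (log2 change 0.03, SE 0.09, limma adjusted p = 0.810). Eif2ak3, the gene of PERK itself, had a log2 change of 0.09 (SE 0.16), and it was not settled here whether its probe would read the transgene. The other eIF2alpha kinases, Eif2ak1 (-0.09) and Eif2ak2 (-0.36), did not pass.

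Effector genes of the ISR gave 13 rises and 0 falls among 20 tested, with a median log2 change of 0.85 (11 to 15 higher with 1 array left out). Ddit4, which encodes the mTORC1 inhibitor REDD1, lay below wild type after vehicle and above it after AP20187: 5.77 and 5.43 in wild type, 3.92 and 4.06 after vehicle and 6.36 and 7.01 after AP20187 (6.50-fold over vehicle). Bbc3, which encodes the death protein PUMA, read 0.07 and -0.06 after vehicle and 2.69 and 2.32 after AP20187 (5.67-fold). Chac1, an enzyme that degrades glutathione, read 5.91 and 5.44 after vehicle, against 5.48 and 5.36 in wild type, and 7.60 and 7.54 after AP20187 (3.72-fold). For Bbc3 and Chac1 the vehicle arrays were thus close to wild type. Sesn2, a sestrin that senses leucine and restrains mTORC1, rose 2.97-fold and Cdsn, a structural protein of skin, 3.07-fold. Among secreted factors, Gdf15, an appetite-lowering cytokine, read -4.36 and -4.39 in wild type, 3.72 and 3.63 after vehicle and 5.12 and 5.03 after AP20187 (2.64-fold). Fgf21, a metabolic hormone, read -4.17 and -6.41 in wild type, 5.89 and 6.01 after vehicle and 6.60 and 6.90 after AP20187. Its log2 change of 0.80 (SE 0.58) had an adjusted p of 0.320 by limma. The vehicle and AP20187 arrays do not overlap, as in 68.4% of all genes. The SE pools the spread of all muscle groups. For this gene the wild type arrays lie far apart from each other, while replicates of the other groups lie close. The wild type spread thus widens this SE, and the missing call does not settle the change from vehicle. Vegfa, the main vessel growth factor, rose 1.65-fold, though a second bright probe (log2 change -0.09) was not called. Adm2 rose 1.88-fold (the call was lost without vehicle replicate 2 or AP20187 replicate 1).

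Genes of serine, glycine and one-carbon metabolism, the amino acid arm of the ISR, gave 6 rises and 1 fall among 21 tested, with a median of 0.18 (4 to 6 rises with 1 array left out). Psat1, a serine synthesis enzyme, read -0.38 and -0.67 in wild type, 6.15 and 6.25 after vehicle and 5.94 and 6.11 after AP20187, a log2 change of -0.18 (SE 0.12, limma adjusted p = 0.296). Phgdh, which starts the same pathway, had means of 1.47, 4.88 and 4.96 in the same order of groups, with a log2 change of 0.07 that did not pass. Asns, asparagine synthetase, read 0.65 and 0.31, then 6.03 and 6.23, then 6.47 and 6.73 (log2 change 0.47, limma adjusted p = 0.0474, lost without vehicle replicate 1, vehicle replicate 2 or AP20187 replicate 2). These enzymes stood far above wild type after vehicle and moved little with AP20187. Members that rose included the folate enzyme Mthfd1l (2.04-fold), Cth, which makes cysteine (1.95-fold), and Aldh18a1, which starts proline synthesis (1.72-fold). The shares over all genes tested were 14.3% higher and 14.8% lower. Amino acid transporters gave 9 rises and 2 falls among 23 tested, and 0 falls without either vehicle array or AP20187 replicate 1: Slc6a9 for glycine rose 2.62-fold, Slc7a1 for arginine and lysine 2.23-fold, Slc43a1 for large neutral amino acids 2.14-fold and Slc3a2, the heavy chain shared by several exchangers, 2.06-fold. Slc7a1 read 0.50 and 0.40 in wild type, 3.84 and 3.53 after vehicle and 4.79 and 4.89 after AP20187. Cytosolic tRNA synthetases gave 6 rises and 0 falls among 23 tested, all less than 2-fold, with Tars at 1.98-fold and Lars at 1.75-fold in front. That count was 3 without vehicle replicate 2 and 3 without AP20187 replicate 1.

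Promoters of these genes were searched for TGATGNAAN, the letters of the composite C/EBP-ATF element through which ATF4 and CHOP act, on both strands of the window from 250 bases before to 50 after each RefSeq start (GRCm38.p6). It was present in 319 of 10817 tested genes with a promoter (2.95%), in 20 of 354 genes at least 2-fold higher (5.65%) and in 5 of 206 at least 2-fold lower (2.43%). The ISR regulators held it in 3 of 16 (18.8%), the effectors in 5 of 16 (31.2%), the tRNA synthetases in 5 of 16 (31.2%), the amino acid transporters in 3 of 17 (17.6%) and the serine and one-carbon enzymes in 2 of 17 (11.8%). A match is a description of letters and not a bound site. The called ISR genes with a match are shown, each 5′ to 3′ on the strand of its gene, with the element in capitals as it reads on that strand, where it is the reverse complement. The windows are Atf3 chr1:191183284-191183583 (minus strand), Nupr1 chr7:126625421-126625720 (minus), Chac1 chr2:119350992-119351291 (plus), Trib3 chr2:152344011-152344310 (minus) and Herpud1 chr8:94386179-94386478 (plus).
Atf3: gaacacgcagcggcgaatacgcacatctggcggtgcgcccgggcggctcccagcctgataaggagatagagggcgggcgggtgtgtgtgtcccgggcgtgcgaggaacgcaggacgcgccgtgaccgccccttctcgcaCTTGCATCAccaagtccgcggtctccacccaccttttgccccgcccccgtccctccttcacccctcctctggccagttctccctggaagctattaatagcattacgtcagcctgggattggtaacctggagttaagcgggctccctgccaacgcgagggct
Nupr1: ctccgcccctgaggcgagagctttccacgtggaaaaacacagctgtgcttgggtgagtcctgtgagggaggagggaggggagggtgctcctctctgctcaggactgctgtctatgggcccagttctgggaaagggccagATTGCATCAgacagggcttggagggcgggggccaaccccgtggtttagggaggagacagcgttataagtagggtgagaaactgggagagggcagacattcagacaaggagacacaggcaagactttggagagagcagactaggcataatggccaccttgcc
Chac1: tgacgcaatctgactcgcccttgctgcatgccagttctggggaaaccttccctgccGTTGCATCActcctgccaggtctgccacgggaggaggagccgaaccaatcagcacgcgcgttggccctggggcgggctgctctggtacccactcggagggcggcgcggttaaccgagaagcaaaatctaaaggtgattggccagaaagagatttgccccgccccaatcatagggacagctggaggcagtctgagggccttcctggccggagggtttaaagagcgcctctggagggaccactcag
Trib3: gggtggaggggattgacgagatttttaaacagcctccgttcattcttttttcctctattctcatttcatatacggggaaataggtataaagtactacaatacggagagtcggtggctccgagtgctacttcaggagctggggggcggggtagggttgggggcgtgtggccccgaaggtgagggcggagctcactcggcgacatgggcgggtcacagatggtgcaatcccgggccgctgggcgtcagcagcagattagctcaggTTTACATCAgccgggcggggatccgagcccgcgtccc
Herpud1: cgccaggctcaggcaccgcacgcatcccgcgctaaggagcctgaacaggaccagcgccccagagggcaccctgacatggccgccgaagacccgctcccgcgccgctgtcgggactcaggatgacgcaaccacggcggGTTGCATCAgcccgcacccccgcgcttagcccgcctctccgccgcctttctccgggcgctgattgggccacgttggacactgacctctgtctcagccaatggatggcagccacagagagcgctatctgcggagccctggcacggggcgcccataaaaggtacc
The element began at -111 from the start in Atf3 and Nupr1, at -113 in Herpud1, at -194 in Chac1 and at 13 in Trib3. These genes differed in size of response: the log2 change was 3.46 for Atf3, 3.02 for Nupr1, 1.89 for Chac1, 1.48 for Trib3 and 0.52 for Herpud1, an ER membrane protein of protein degradation. The ISR genes Fgf21, Vldlr and Jdp2 also held a match and were not called.

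ER chaperones and oxidoreductases are known targets of the other branches of the unfolded protein response. Of 21 tested, 6 were higher (28.6%, against 14.3% of all genes) and 0 lower, 2 of them at least 2-fold higher, with a median log2 change of 0.10. Among the rises, Atf6, a transcription factor of that response, rose 2.49-fold, Dnajb9, a cochaperone of BiP, 2.37-fold, and Xbp1, the factor activated by IRE1, 1.89-fold. Atf6 read 0.16 and 0.07 after vehicle and 1.52 and 1.34 after AP20187. Hspa5, which encodes BiP, read 6.05 and 6.07 after vehicle and 6.39 and 6.52 after AP20187 (log2 change 0.39, limma adjusted p = 0.0160, lost without vehicle replicate 1 or 2 or AP20187 replicate 2). Hsp90b1, which encodes GRP94, had a log2 change of 0.02, Pdia4 of -0.09, Calr, calreticulin, of -0.17 and Pdia6, a disulfide isomerase, of -0.24, none of which passed. The ER stress element, CCAAT and CCACG spaced by 9 bases, was found in 8 of 18 of these genes with a promoter (44.4%) and in 17 of all 10817 (0.157%). Of the 8, only Hspa5 was called in the main fit. Its window is shown as that of the called gene with the element (chr2:34771840-34772139, plus strand, element from -65, in capitals).
Hspa5: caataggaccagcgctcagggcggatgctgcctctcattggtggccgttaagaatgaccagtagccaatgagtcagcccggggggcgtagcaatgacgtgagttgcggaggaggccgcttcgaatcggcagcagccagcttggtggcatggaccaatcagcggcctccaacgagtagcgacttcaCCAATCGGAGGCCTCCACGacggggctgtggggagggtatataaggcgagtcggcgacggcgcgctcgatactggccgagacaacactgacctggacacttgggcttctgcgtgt
In ER-associated degradation 2 of 20 genes were higher (10%) and 2 lower (10%), below the 14.3% and 14.8% of all genes. Edem1 (1.65-fold) and Syvn1 (1.55-fold), which select and ubiquitinate misfolded proteins, rose. Rnf5 and Selenok fell (Selenok lost its call without vehicle replicate 2 or AP20187 replicate 1). Of the cytosolic heat shock genes 4 of 23 were higher (17.4%) and 6 lower (26.1%). Hsf2, a heat shock transcription factor, rose 2.34-fold, from 1.36 and 1.55 to 2.66 and 2.71, and Cryab, the small chaperone of the sarcomere, fell 1.91-fold, from 9.14 and 9.31 to 8.44 and 8.14. Without vehicle replicate 2, 2 were higher and 1 lower, without AP20187 replicate 1, 2 and 3, and without AP20187 replicate 2, 4 and 2.

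**Figure D3:**
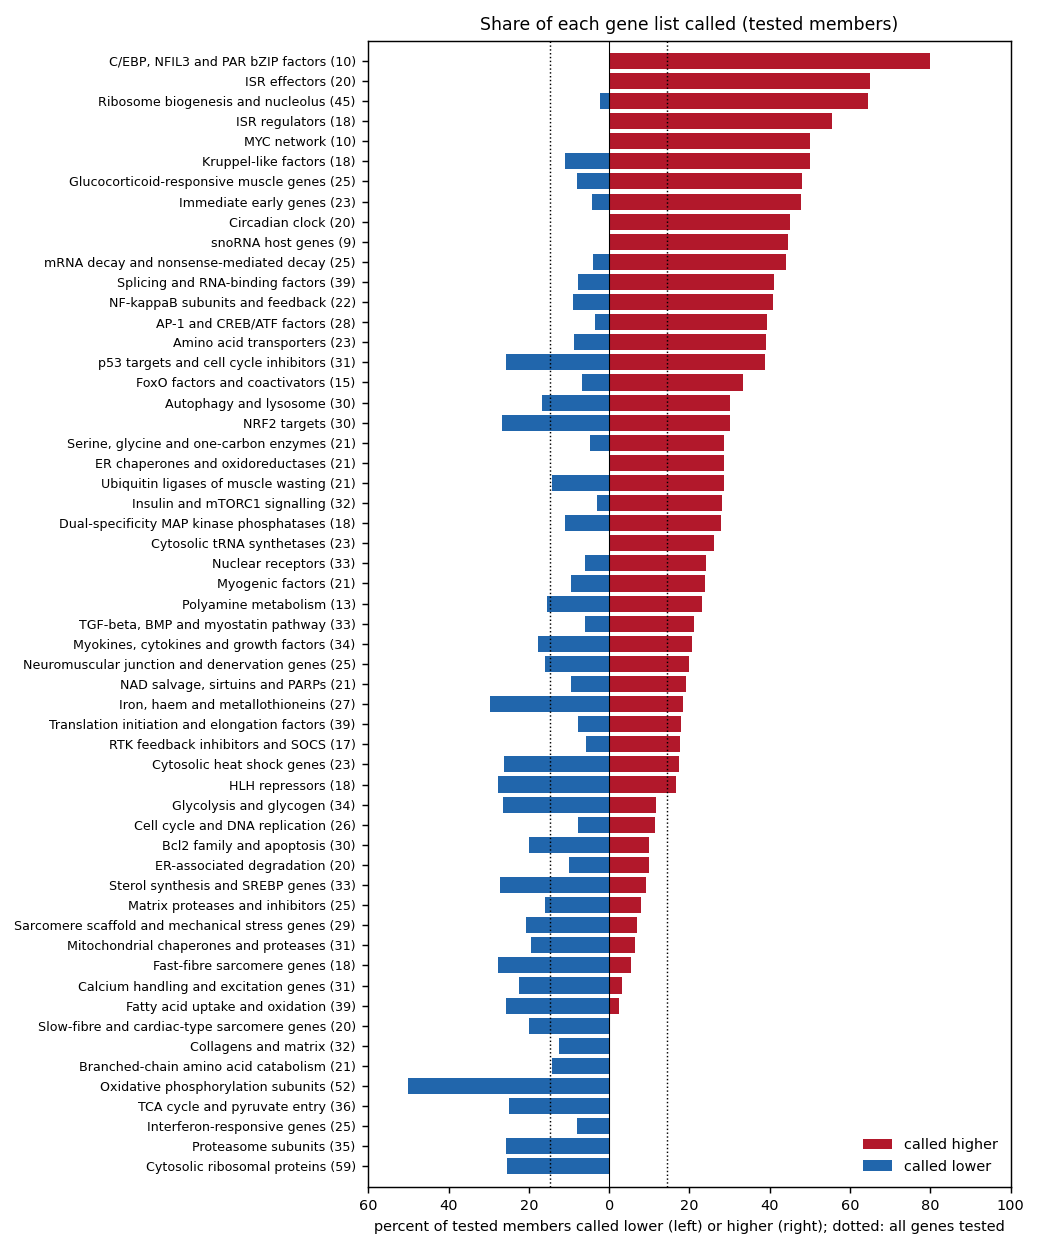
Percent of tested members called higher (right, red) or lower (left, blue) with AP20187 for the 56 gene lists other than cell type markers (y axis, number of tested members in brackets). Dotted lines give the share over all genes tested (14.3% higher and 14.8% lower). C/EBP factors, ISR effectors, ribosome biogenesis and ISR regulators lie far to the right, and oxidative phosphorylation reaches furthest on the left.

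Genes that build ribosomes rose together, and with them MYC and its partners. Of 45 tested genes of ribosome biogenesis and the nucleolus, 29 were higher and 1 lower, 17 of them at least 2-fold higher, with a median log2 change of 0.83 against -0.11 over all genes. The count of higher genes was 29 after quantile normalization, 25 with scaling on the spike-in controls and 25 to 28 with 1 array left out. Nop2, an rRNA methyltransferase, read 3.30 and 3.31 in wild type, 3.55 and 3.53 after vehicle and 5.08 and 5.04 after AP20187 (log2 change 1.52, SE 0.08). Rrs1, an assembly factor of the large subunit, went from 1.97 and 1.92 to 3.42 and 3.68 (3.04-fold), and Nolc1, a nucleolar chaperone of small nucleolar ribonucleoproteins (snoRNPs), from 2.12 and 2.08 to 3.47 and 3.50 (2.61-fold). The AP20187 arrays of these genes do not overlap the vehicle arrays, as in 68.4% of all genes. Ppan, another assembly factor of the large subunit, rose 2.67-fold and Ddx21, an RNA helicase of the nucleolus, 2.32-fold. The rises covered several steps: RNA polymerase I subunits Polr1b (1.07) and Polr1c (0.83), the snoRNP proteins Nop56 (1.14), Nop58 (1.26) and Gar1 (1.29), and the small-subunit processing proteins Utp20 (1.30), Heatr1 (1.12) and Utp4 (1.05), given as log2 changes and chosen after their values were seen. Members that were not called included Npm1 (0.09), Dkc1 (-0.09), Bop1 (-0.01) and the polymerase I factors Ubtf (-0.18) and Rrn3 (-0.06), though a second bright probe of Ubtf (0.56) was called higher. Gnl3l, a nucleolar GTPase, fell by 0.54, a call lost without any 1 of the 6 arrays. Nip7 has a second bright probe with a log2 change of -0.64 against 0.84 for the brightest, and both were called. Nolc1 has 2 bright probes, both called higher, with log2 changes of 0.68 and 1.39, of which the larger is given above. In the MYC network 5 of 10 tested genes were higher and 0 lower: besides Myc, its partner Max rose 1.63-fold, and the antagonist Mnt, which competes for Max, 2.43-fold, from 1.62 and 1.56 to 2.96 and 2.78. Mga and Mlxipl also rose, and without vehicle replicate 2 the count was 3. Srm, spermidine synthase of the polyamine pathway, rose 3.17-fold, from 2.04 and 1.94 to 3.74 and 3.57.

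Host genes of small nucleolar RNAs gave the largest single rise. Snhg16 read -1.22 and -0.54 in wild type, -0.43 and 0.00 after vehicle and 4.03 and 5.04 after AP20187 (log2 change 4.75, SE 0.34). Snhg12 went from 0.65 and 0.94 to 4.32 and 4.93 (14.2-fold) and Snhg1 from -1.96 and -1.39 to 1.60 and 2.66 (14.0-fold). The AP20187 arrays of each stood far above the vehicle arrays, and differed from each other by more than the vehicle arrays did. In this list 4 of 9 tested genes were higher and 0 lower (3 to 6 with 1 array left out). Spliced host RNAs of this kind are known to be removed by nonsense-mediated decay. In the list of mRNA decay and nonsense-mediated decay factors 11 of 25 were higher and 1 lower, with a median of 0.31. Smg9 (log2 change 1.01), Upf3a (0.81) and Smg6 (0.59), parts of the decay machinery, rose. Upf3a read 1.11 and 1.04 in wild type, 0.51 and 0.45 after vehicle and 1.31 and 1.27 after AP20187. Btg2, which recruits the deadenylase complex and halts growth, rose 4.90-fold. Btg1 rose 1.99-fold, though the mean over its probes had a log2 change of -0.0495. Tob2 fell 1.63-fold.

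**Figure D4:**
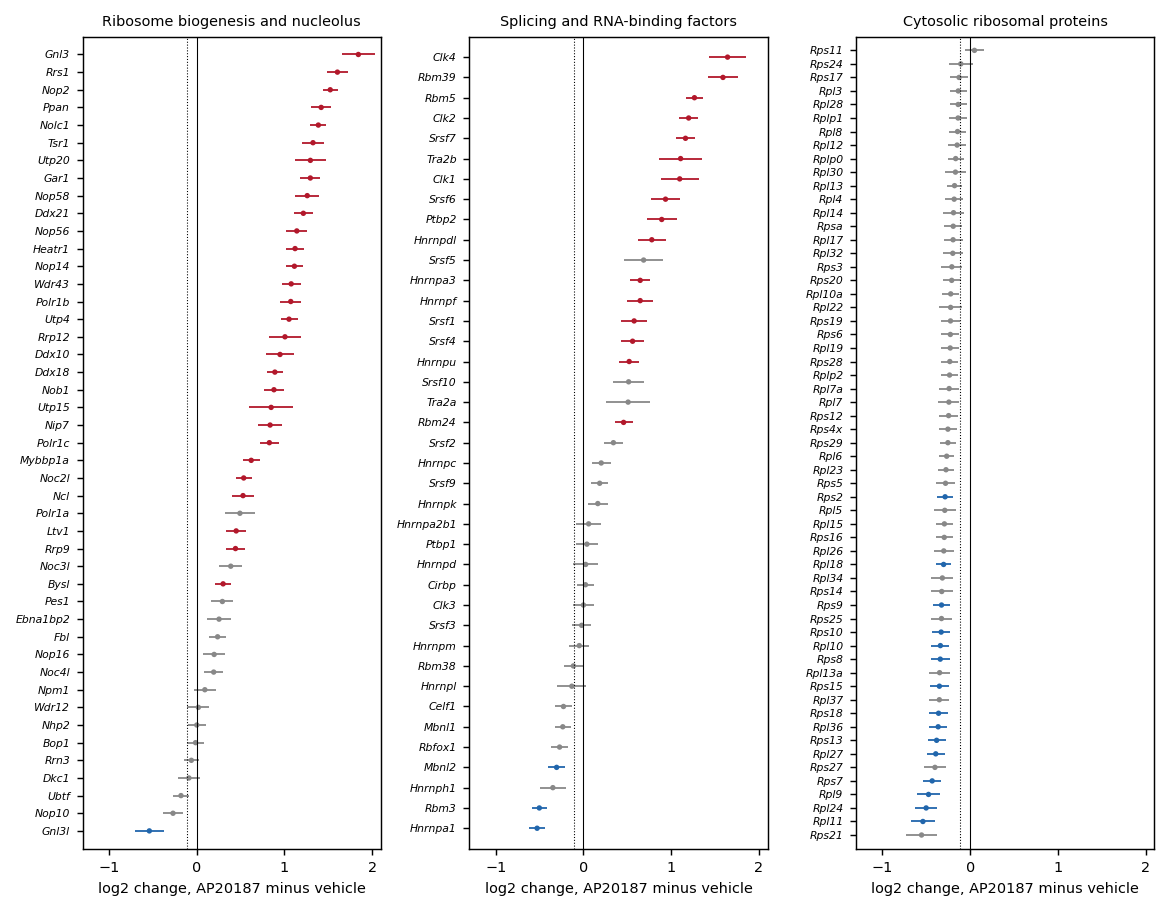
Log2 change (AP20187 minus vehicle, x axis) with its standard error for each tested member (y axis) of the lists for ribosome biogenesis (45 genes), splicing (39) and ribosomal proteins (59), red where called higher, blue where called lower and grey otherwise. The dotted line is the median of all genes (-0.11), and ribosome biogenesis members extend to the right of it while ribosomal proteins crowd to its left.

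Ribosomal proteins did not follow the genes that assemble them. Of 59 tested, 0 were higher and 15 lower, with a median log2 change of -0.25, and none moved by 2-fold. After quantile normalization the median was 0.00 with 0 lower and 1 higher, and the count of lower genes was 0 without vehicle replicate 2, 1 without AP20187 replicate 1, 6 without AP20187 replicate 2 and 26 without vehicle replicate 1. Rpl11 read 8.93 and 9.21 after vehicle and 8.40 and 8.67 after AP20187, and Rps7 7.44 and 7.63, then 7.05 and 7.16, which shows how near each other the groups lie. Ribosomal proteins have many near-identical pseudogene copies, so probes of this list may share signal with them. Translation factors had 7 of 39 higher (17.9%) and 3 lower (7.69%), against 14.3% and 14.8% of all genes. Eif3d (1.61-fold) and Eif3a (1.75-fold), subunits of the initiation factor that binds the small subunit, rose, as did Eif4ebp1, the ATF4 target that blocks cap binding (1.54-fold). Eif4e, the cap-binding protein itself, fell 1.44-fold, which was lost without vehicle replicate 2 or AP20187 replicate 1. Without vehicle replicate 1, 3 were higher, and without AP20187 replicate 1 none was lower.

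The E-box letters CACGTG, which MYC-MAX and several other basic helix-loop-helix factors (clock factors among them) can bind, were in the promoter window of 1221 of 10817 genes (11.3%), of 63 of 354 genes at least 2-fold higher (17.8%) and of 16 of 206 at least 2-fold lower (7.77%). In ribosome biogenesis 9 of 39 genes held it (23.1%). Of these, 7 were called higher: Nop2, Tsr1, Utp20, Wdr43, Utp4, Mybbp1a and Ltv1. In the whole list 29 of 45 tested genes were higher (64.4%). Whether the letters go with the rise was not tested. The windows of Nop2 (chr6:125131633-125131932, plus strand, element from -60) and Tsr1 (chr11:74897830-74898129, plus strand, element from 24) are shown as the largest rises among them, chosen after their values were seen.
Nop2: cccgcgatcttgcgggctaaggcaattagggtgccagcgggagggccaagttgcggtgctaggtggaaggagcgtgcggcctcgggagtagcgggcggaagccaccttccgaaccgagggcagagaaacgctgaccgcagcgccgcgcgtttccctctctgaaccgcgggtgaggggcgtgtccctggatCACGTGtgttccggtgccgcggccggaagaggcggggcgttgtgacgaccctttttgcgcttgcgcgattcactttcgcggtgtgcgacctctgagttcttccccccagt
Tsr1: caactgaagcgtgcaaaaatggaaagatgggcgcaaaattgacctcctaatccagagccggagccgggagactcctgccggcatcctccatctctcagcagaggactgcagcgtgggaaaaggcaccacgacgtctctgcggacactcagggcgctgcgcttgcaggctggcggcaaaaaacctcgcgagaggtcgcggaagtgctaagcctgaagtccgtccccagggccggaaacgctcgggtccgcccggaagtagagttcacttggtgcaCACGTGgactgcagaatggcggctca
Tsr1, a maturation factor of the small subunit, went from 1.27 and 1.33 after vehicle to 2.48 and 2.77 after AP20187. The letters are the same on both strands. They were in 5 of 16 clock genes (31.2%) and 0 of 8 snoRNA hosts. The cyclic AMP element TGACGTCA was in 17 of the 354 risers (4.80%) against 356 of all (3.29%).

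Among splicing and RNA-binding factors 16 of 39 were higher and 3 lower, with a median log2 change of 0.34 (10 higher without vehicle replicate 1). The CLK kinases, which phosphorylate SR splicing factors and are themselves controlled by intron retention, rose: Clk4 read 1.35 and 1.67 in wild type, 1.29 and 1.57 after vehicle and 2.78 and 3.36 after AP20187 (3.12-fold), and Clk2 rose 2.30-fold. Among RNA-binding splicing factors, Rbm39 rose 3.01-fold, from 3.80 and 3.90 to 5.20 and 5.68, Rbm5 2.40-fold and Srsf7 2.24-fold. Vehicle and AP20187 arrays of these genes do not overlap, as in 68.4% of all genes. Srsf3 (-0.02) and Ptbp1 (0.04) did not pass. Rbm3, a cold-induced RNA-binding protein, fell 1.42-fold. Hnrnpa1 had its brightest probe at -0.53 and another bright probe at 0.60, both called, and 0.0344 as a mean over probes, so its direction depends on the probe.

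Several families of transcription factors had more rises than falls, beside 14.3% higher and 14.8% lower over all genes tested. Of the C/EBP and related bZIP factors, 8 of 10 were higher and 0 lower (median 0.68; 5 without vehicle replicate 2), including Cebpd, which read 5.14 and 4.54 in wild type, 3.45 and 3.74 after vehicle and 5.26 and 5.40 after AP20187 (3.33-fold), and the clock-linked repressor Nfil3 (4.05-fold). In this case the rise returned Cebpd to about its wild type level. AP-1 and CREB/ATF factors gave 11 rises and 1 fall among 28 tested, with the small MAF proteins Mafk (2.12-fold) and Mafg (1.63-fold), dimer partners of NRF2, among them. That count was 6 without vehicle replicate 2 and 7 without AP20187 replicate 1. Immediate early genes gave 11 rises and 1 fall among 23 tested (7 higher without vehicle replicate 1). Fos read -1.53 and -1.07 after vehicle and 2.47 and 2.08 after AP20187, against -0.15 and 0.30 in wild type, Egr1 rose 7.07-fold, and Ier5 and Ier2 rose 3.27-fold and 2.37-fold. Kruppel-like factors gave 9 rises and 2 falls among 18 tested. Klf11 rose 4.04-fold by the fit, but its vehicle arrays were not well above background, so the size of this rise is uncertain. Klf15, a glucocorticoid-induced regulator of amino acid breakdown, rose 2.74-fold, Klf5 2.42-fold and Klf10, a TGF-beta early gene, 2.37-fold. Of 33 nuclear receptors 8 were higher and 2 lower (5 higher without either vehicle array, and 1 lower without vehicle replicate 2 or either AP20187 array): the corepressor Nrip1 rose 2.41-fold and the oxidative regulator Esrrg 1.90-fold, while Rxrg, a retinoid receptor of muscle, fell 2.77-fold, from 5.47 and 5.59 to 3.98 and 4.15. The repressors Id1 (1.45-fold) and Hes1 (1.97-fold) fell, Hes1 losing its call without any array but AP20187 replicate 1.

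Clock genes gave 9 rises and 0 falls among 20 tested (median 0.43; 5 higher without vehicle replicate 2). Over all genes tested 14.3% were higher and 14.8% lower. Per2 rose at least 3.72-fold from vehicle arrays not well above background. This bound takes, for each vehicle array, the higher of the dimmest detected signal and the probe's own value, and leaves out sampling error. Ciart, Cry2 (1.99-fold) and Csnk1d (1.56-fold), the kinase that marks PER proteins, also rose. Ciart lost its call without vehicle replicate 2. Glucocorticoid-responsive muscle genes gave 12 rises and 2 falls among 25 tested, and for some of them both vehicle arrays lay below both wild type arrays. Fbxo32, the atrophy ligase atrogin-1, read 3.12 and 4.25 in wild type, 1.71 and 1.61 after vehicle and 3.18 and 3.83 after AP20187 (3.60-fold, lost without vehicle replicate 2). Trim63, the ligase MuRF1, read 6.23 and 6.36, then 5.24 and 5.10, then 6.08 and 5.86. AP20187 levels of both therefore overlapped or neared wild type. Klf9 rose 1.64-fold, whereas Sgk1, a kinase induced by the same hormone, fell 1.56-fold and Dusp1, the main phosphatase induced by it, fell 1.88-fold, from 1.81 and 2.05 to 1.19 and 0.85. The list's rises numbered 8 without vehicle replicate 1, 7 without vehicle replicate 2 and 8 without AP20187 replicate 1.

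In insulin and mTORC1 signalling 9 of 32 were higher and 1 lower: Irs2, an adaptor of the insulin receptor, rose 3.10-fold, from 1.87 and 1.62 to 3.57 and 3.18, and Pik3ip1, an inhibitor of PI3 kinase, 2.99-fold, from 1.82 and 1.93 to 3.53 and 3.37. Both were at 3.18 and 3.38 and at 2.51 and 2.81 in wild type. Igf1, the growth factor, fell 1.61-fold. Grb14, an adaptor that inhibits the insulin receptor, fell 2.28-fold. In the TGF-beta, BMP and myostatin pathway 7 of 33 were higher and 2 lower (4 or 5 higher with 1 array left out, the lowest without vehicle replicate 2 or AP20187 replicate 1). Smad7, the inhibitory SMAD, rose 3.29-fold, from -1.15 and -0.87 to 0.85 and 0.56, Nog, the BMP trap noggin, 2.15-fold, and the receptor Tgfbr1 1.67-fold. Of NF-kappaB genes 9 of 22 were higher and 2 lower, 8 or 9 higher with 1 array left out. The noncanonical members Relb (2.83-fold) and Map3k14, the kinase NIK (2.79-fold), and the adaptor Traf2 (2.26-fold) led. Of 2 bright Map3k14 probes (log2 changes 0.64 and 1.48) 1 was called. Traf2 has 2 bright probes (log2 changes 0.53 and 1.18), both called higher. Relb read 1.32 and 1.27 in wild type, 0.88 and 0.77 after vehicle and 2.39 and 2.26 after AP20187. Rela rose 1.68-fold and Tnfaip2 fell 2.36-fold. Dual-specificity MAP kinase phosphatases gave 5 rises and 2 falls among 18 tested, led by Dusp18 (2.45-fold) and Dusp27 (2.20-fold), with fewer of both without vehicle replicate 2. Of 2 bright Dusp18 probes (log2 changes 0.59 and 1.29) 1 was called. Among receptor feedback inhibitors 3 of 17 were higher (17.6%) and 1 lower (5.88%), against 14.3% and 14.8% of all genes. These rises were lost without vehicle replicate 1.

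Protein turnover and cell death genes divided. Proteasome subunits gave 9 falls and 0 rises among 35 tested (median -0.25), with 0 lower without vehicle replicate 2, 2 without AP20187 replicate 1, 4 without AP20187 replicate 2 and 5 without wild type replicate 1 or 2. After quantile normalization their median was -0.04. Autophagy genes gave 9 rises and 5 falls among 30 tested (6 higher without vehicle replicate 2): Gabarapl1 (1.93-fold), Ulk1 (1.92-fold) and Sqstm1 (1.71-fold), for membrane, initiation and cargo, rose, and Ctsl, a lysosomal protease, read 5.22 and 5.21 in wild type, 7.38 and 7.29 after vehicle and 7.95 and 8.13 after AP20187. Lysosomal Ctsb fell 1.39-fold. Lamp1 fell 1.32-fold, lost without vehicle replicate 2, AP20187 replicate 1 or AP20187 replicate 2. Ubiquitin ligases of wasting gave 6 rises and 3 falls among 21 tested, with Mul1, a ligase of the mitochondrial membrane, 1.56-fold higher. The lower autophagy count was 1 to 3 and the lower ligase count 0 or 1 with 1 transgenic array left out. The count of higher ligases was 2 without vehicle replicate 2 and 3 without AP20187 replicate 1. Genes of p53 targets and cell cycle inhibitors gave 12 rises and 8 falls among 31 tested. Trp53 itself rose 2.45-fold, Trp53inp1 2.27-fold and Tigar 1.58-fold, while Cdkn2c fell 1.85-fold and Ccng1, cyclin G1, 1.46-fold. Lower p53 genes numbered 4 without AP20187 replicate 2 and 5 without any other transgenic array. In the Bcl2 family 3 of 30 were higher (10%) and 6 lower (20%), against 14.3% and 14.8% of all genes. The death genes Bbc3 and Casp2 (1.64-fold) and the protective Mcl1 (log2 change 0.58) rose, and the protective Bcl2 fell 1.88-fold. The lower count of that family was 1 without vehicle replicate 2 and 3 without either AP20187 array.

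Muscle identity genes changed in a few members. Over all genes tested 14.3% were higher and 14.8% lower. Myog, myogenin, a myogenic factor that denervated fibres reuse, read 0.36 and 1.00 in wild type, 2.06 and 1.85 after vehicle and 5.10 and 5.70 after AP20187 (10.9-fold). In all, 5 of 21 myogenic factors were higher and 2 lower (2 higher without vehicle replicate 2 or AP20187 replicate 1): Mef2d rose 1.87-fold and Mef2c fell 1.61-fold. Myod1 rose by 0.58 on the log2 scale, lost without vehicle replicate 2 or AP20187 replicate 1, and stayed at 1.28 and 1.08 below the 1.83 and 1.90 of wild type. At the neuromuscular junction 5 of 25 were higher and 4 lower (3 higher without vehicle replicate 2, and 2 lower without either vehicle array or AP20187 replicate 2). Dok7 (2.79-fold) and Musk (1.76-fold), parts of the agrin receptor, rose, and Runx1, induced by denervation, rose 2.73-fold but lost its call without vehicle replicate 2. The acetylcholine receptor subunits Chrna1 (-0.24), Chrnb1 (-0.25), Chrnd (0.05), Chrne (-0.18) and Chrng (-0.13) did not pass on their brightest probes, given as log2 changes, while a second bright probe of Chrna1 (-0.61) was called lower. In sarcomere scaffold genes 2 of 29 were higher and 6 lower, with the stretch-induced Ankrd1 rising from 2.52 and 2.74 to 4.97 and 5.15 (5.41-fold; wild type -0.48 and -0.10) and Lmod2, a thin filament protein, 2.39-fold. Among fast-fibre genes 1 of 18 was higher and 5 lower, with a median of -0.28 that became 0.00 after quantile normalization. Pgam2, muscle phosphoglycerate mutase, read 9.26 and 9.41 after vehicle and 8.36 and 8.14 after AP20187, and Pvalb, the calcium buffer parvalbumin, 11.1 and 11.2, then 10.3 and 10.2. Of the slow-fibre and cardiac-type genes 4 of 20 were lower and 0 higher (2 lower without vehicle replicate 1 or AP20187 replicate 2), with Actc1, cardiac actin, at 9.70 and 9.70 in wild type, 6.72 and 6.33 after vehicle and 5.38 and 4.65 after AP20187. Calcium handling genes gave 7 falls and 1 rise among 31 tested, among them Jph2 (1.87-fold) and Asph (1.70-fold), which form the junction between surface membrane and calcium store. The lower count was 3 without vehicle replicate 1, AP20187 replicate 1 or AP20187 replicate 2, and in the scaffold list 3 without either vehicle array.

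In several metabolic lists falls outnumbered rises, by small amounts that depend on the scaling. Oxidative phosphorylation subunits gave 26 falls among 52 tested and 0 rises, with a median log2 change of -0.33, and none moved by 2-fold. After quantile normalization 5 were lower and 2 higher, with the spike-in controls 1 was lower, and the lower count ran from 4 without vehicle replicate 2 or AP20187 replicate 1 to 36 without vehicle replicate 1. Uqcrh, a complex III subunit, read 8.34 and 8.62 after vehicle and 7.57 and 7.80 after AP20187 (1.73-fold lower), and kept its call in all 21 alternatives. TCA cycle genes gave 9 falls and 0 rises among 36 tested (2 lower without vehicle replicate 2 or AP20187 replicate 1), and fatty acid oxidation genes gave 10 falls and 1 rise among 39 (2 to 5 lower with 1 array left out). Fabp3, the muscle fatty acid carrier, fell 1.92-fold, from 9.49 and 9.31 to 8.48 and 8.44, and Acot2, a mitochondrial thioesterase, rose 1.90-fold. Glycolysis and glycogen genes gave 9 falls and 4 rises among 34 tested: Fbp2, muscle fructose bisphosphatase, fell 2.59-fold and the glucose transporter Slc2a1 rose 2.16-fold, from 1.37 and 1.30 to 2.42 and 2.46. Sterol and SREBP genes gave 9 falls and 3 rises among 33 tested, with Scd2, a fatty acid desaturase, 3.01-fold lower and Srebf1, the lipid regulator, 1.93-fold lower. Lower glycolysis genes numbered 3 without vehicle replicate 2 or either AP20187 array, and sterol rises 0 without either vehicle array or AP20187 replicate 2 and 1 without AP20187 replicate 1, with 5 sterol falls without vehicle replicate 2. The other mitochondrial lists, for chaperones and proteases and for branched-chain amino acid breakdown, had 6 of 31 (19.4%) and 3 of 21 (14.3%) lower, near the 14.8% of all genes, and 2 and 0 higher. Without AP20187 replicate 1, 3 of the mitochondrial chaperones were lower, and lower branched-chain genes numbered 0 without vehicle replicate 2 and 1 without either AP20187 array.

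Iron and redox lists held members called in both directions. Over all genes tested 14.3% were higher and 14.8% lower. Of 27 iron, haem and metallothionein genes 5 were higher (18.5%) and 8 lower (29.6%). Against the fall of Tfrc stood Hmox1, haem oxygenase, which rose 2.50-fold from 1.54 and 1.54 to 2.55 and 3.18, and Mt2, a metallothionein, which rose 2.23-fold. Of 2 bright Hmox1 probes (log2 changes 0.57 and 1.32) 1 was called. Hjv, haemojuvelin, fell 1.43-fold. Of 30 NRF2 targets 9 were higher and 8 lower, with a median of -0.10 and with rises such as Srxn1, sulfiredoxin (2.49 and 2.49 in wild type, 4.75 and 5.22 after vehicle, 7.59 and 7.82 after AP20187), Osgin1 (4.47-fold), Gclc, of glutathione synthesis (2.20-fold), and Txnrd1, thioredoxin reductase (2.02-fold). The glutathione transferases Gsta4 and Gstm1 fell 2.13-fold and 1.56-fold. In NAD metabolism 4 of 21 were higher (19.0%) and 2 lower (9.52%). Sirt1, a deacetylase that consumes NAD, rose 3.05-fold from 0.09 and 0.44 to 1.82 and 1.92, in contrast to Nmrk2. With 1 transgenic array left out, 2 to 4 iron genes were higher and 3 to 4 lower, and lower NRF2 targets numbered 2 without vehicle replicate 2, 3 without AP20187 replicate 1 and 5 without AP20187 replicate 2. Higher NAD genes numbered 1 without vehicle replicate 1 or AP20187 replicate 2. Pprc1, a coactivator of mitochondrial and nuclear growth genes, rose 2.22-fold, and Cited4, a coregulator linked to exercise growth, fell 4.13-fold, from 4.68 and 4.49 to 2.83 and 2.25.

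Markers of other cell types were read in the same arrays, since the transgene is meant for fibres. Macrophage and leucocyte markers gave 12 falls and 0 rises among 15 tested, with a median log2 change of -0.91 that was -0.92 after quantile normalization and -0.69 with the spike-in controls, where 6 were lower. The log2 of their summed level was 6.22 and 6.28 after vehicle, 5.65 and 5.68 after AP20187 and 6.41 and 6.33 in wild type. All but Ptprc, the leucocyte antigen CD45, were well above background on all 4 transgenic arrays, and Ptprc was so only after vehicle. Adgre1, the macrophage marker F4/80, read -0.46 and -0.07 after vehicle and -1.89 and -1.41 after AP20187 (2.61-fold lower), and the complement gene C1qa 1.66 and 1.86, then 0.69 and 0.86. Every AP20187 array was below every vehicle and wild type array for both genes. AP20187 and vehicle arrays did not overlap in 68.4% of all genes. In a bulk sample fewer cells of a type and less RNA per cell cannot be told apart, and the part of these cells in the other results was not tested. The chemokine Ccl8, which macrophages make, fell 3.66-fold. Lymphocyte markers were lower in 2 of 7 (Cd4 and Cd3e), fibroblast and tendon markers in 4 of 15 with Scx, the tendon factor, 2.09-fold lower, and Schwann cell markers in 2 of 10. Endothelial markers (0 of 13 called, median 0.06), satellite cell markers (0 of 8, median 0.07), smooth muscle markers (1 of 11 lower, Smtn), fibre markers (1 of 10 lower, Mylpf), adipocyte markers (1 of 11 higher, Plin4; median -0.50), neutrophil markers (1 of 5 lower, Elane; median 0.76) and erythroid markers (1 of 7 lower, Slc4a1; median -0.48) had few called members. The fibroblast count was 1 without vehicle replicate 2 or AP20187 replicate 2, and in adipocytes, whose summed level differed between replicates, 5 were lower without AP20187 replicate 2. Collagens and matrix genes gave 4 falls (12.5%, below the 14.8% of all genes) and 0 rises among 32 tested, with a median of -0.35. These falls were lost without vehicle replicate 1 and fewer without vehicle replicate 2 or AP20187 replicate 2. Elane lost its call without either vehicle array or AP20187 replicate 2, Slc4a1 without vehicle replicate 2, and the Schwann count was 0 without vehicle replicate 2 or AP20187 replicate 2.

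**Figure D5:**
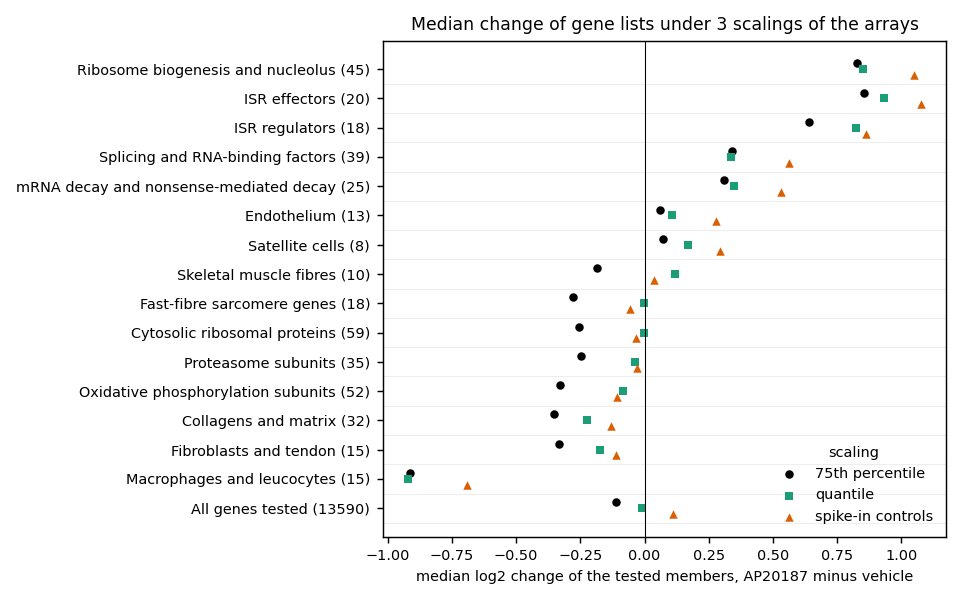
Median log2 change (AP20187 minus vehicle, x axis) of the tested members of 15 gene lists and of all genes tested (y axis, number of genes in brackets) with 3 scalings of the arrays. Ribosome biogenesis, ISR and splicing lists stay above 0 and macrophage markers below -0.6 in each, whereas fast-fibre and ribosomal protein medians move from about -0.25 to near 0.

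Different probes of the same gene gave a check within the arrays. Of 2945 genes with several probes well above background on all 4 transgenic arrays, 467 had more than 1 called probe, and in 457 of these the called probes moved the same way. The median spread between probes was 0.14 log2 units. In 10 genes called probes moved in opposite directions: Fam13c had -0.95 and 1.14, Zkscan1 -0.53 and 0.85, and Hspa4 -0.47 and 0.50. Ate1, Casz1, Dennd5b, Ssbp1, Zfp467, Hnrnpa1 and Nip7 were the others. Probes without a gene symbol were tested in a fit over all 28243 probes, where 8.87% were higher and 12.8% lower. Of 10706 unnamed probes 349 were higher (3.26%) and 1467 lower (13.7%), with a median log2 change of -0.28. With the spike-in controls the counts were 372 and 307, and without vehicle replicate 2 they were 156 and 275.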

How the data were processed

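Muscle RNA (150 ng) was labelled with Cy3 and hybridised to single-colour Agilent mouse arrays, per the labels' protocols. Per the file headers, the deposited intensities were made with Agilent Feature Extraction 10.7.1.1, which subtracted background and removed a spatial trend. The authors also deposited a table of log2 values, whose differences between arrays followed those of the log2 intensities; the sources used here do not say how it was centred, and it served as an alternative. Spots flagged as outliers were left out, spots of a probe were averaged, and each array's 75th percentile was subtracted from its log2 values. A level here is that difference. The brightest probe stood for a gene, and a gene was tested where at least 1 muscle group had it well above background on each of its arrays. Of 55681 probes, 26056 were named, to 19752 symbols, through RefSeq accessions (25521 of 26108 matched), and 29625 were unnamed.

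The 6 muscle arrays were fitted with limma 3.58.1 in R 4.3.3 (lmFit and eBayes with a trend, 3 residual degrees of freedom before moderation), and p-values were adjusted by Benjamini-Hochberg over all genes tested. A gene was called at an adjusted p under 0.05. On simulated arrays the fit recovered 59% of changes of 1 log2 unit and 87% of changes of 2, with 5 false calls. Those arrays had independent noise and no scaling or position effects, so they do not test such effects here. The number of arrays limits the precision. Genes were named by rule: the 20 largest rises and 20 largest falls among called genes above background on all 4 transgenic arrays, up to 5 called members per list and direction with the smallest p, a fixed set of ISR and muscle genes, and members with no call as contrast; Polr1b, Heatr1, Wdr43 and other ribosome biogenesis members beyond these were chosen after their values were seen. Members and gene lists were chosen with earlier results of these data known. List counts are to be read beside the shares of all genes tested, 14.3% higher and 14.8% lower. The normexp alternative was run on the median spot signal. Other alternatives were another scaling, filter, probe rule or fit, and leaving out each array. The 4 arrays of the other samples were not analysed here.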

Additional observations from a re-analysis of the deposited data

How the results depend on the processing

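With normexp background correction 233 genes were at least 2-fold higher and 47 at least 2-fold lower. Quantile normalization gave 1172 lower genes, 130 of them by 2-fold. Scaling on the spike-in controls gave 1763 changed and 222 lower genes, with 854 at least 2-fold higher and 141 at least 2-fold lower. Requiring signal on all 4 transgenic arrays left 154 at least 2-fold lower. The deposited log2 table gave 1038 lower genes, and with its 75th percentile subtracted 611 lower, 720 at least 2-fold higher and 132 at least 2-fold lower. Without the variance trend 1326 were lower. Within row 1 of the slide, which leaves out vehicle replicate 2, 1780 changed, 1127 higher and 653 lower, with 165 at least 2-fold lower. Leaving out each array in turn gave 1780 to 3362 changed, 1127 to 1798 higher, 653 to 1565 lower, 411 to 492 at least 2-fold higher and 165 to 347 at least 2-fold lower genes. The lowest counts of changed, higher and lower genes came without vehicle replicate 2. With the replicate number as a block, 5626 genes changed, 2454 higher and 3172 lower. Deviations of same-numbered arrays correlated at 0.0470, 0.159 and 0.198 across genes, so the numbers were not taken as pairs. With the mean over a gene's probes, Btg1 (-0.0495), Hnrnpa1 (0.0344) and Hspa4 (-0.15) reversed. The cause of these changes was not tested. Of 371 called genes among those the naming rule gave, 165 kept call and direction in all 21 alternatives, 236 without vehicle replicate 2, 206 with the spike-in controls and 304 after quantile normalization.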
